A study of Homo sapiens with 18 samples.

Results

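The comparison described here is that of MDA-MB-231 cells in which the long non-coding RNA AL078604.2 was targeted by an antisense oligonucleotide (ASO) with the same cells given a control ASO. Its members were the 6 arrays whose titles name this line, out of 18 arrays in the series, chosen by title alone. The control group held 3 arrays and the anti-AL078604.2 group held 3. MDA-MB-231 is an established triple-negative breast cancer line, that is, one without oestrogen receptor, progesterone receptor or amplified HER2. Both groups received a GapmeR at 15 nM mixed with the transfection reagent TransIT-BrCa, and RNA was taken after 48 h, so that oligonucleotide and reagent were common to treated and control arrays. The anti-AL078604.2 arrays carried 1 ASO, numbered as the first by the submitters, and neither group was left untransfected. The labels name no clone and do not say whether the 3 arrays of a group came from separate cultures, so the p-values below measure the spread between arrays of a group, pooled over all 6 groups of the series, which may be technical. The remaining arrays were of MDA-MB-468 cells given the same pair of treatments and of SKBR3 cells given a control ASO or one against LINC01269.

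A GapmeR is a short single-stranded oligonucleotide with a DNA centre and modified ends. Its DNA centre pairs with the target RNA and recruits RNase H, which cuts the RNA strand, also in the nucleus where many long non-coding RNAs reside. Immediate early genes are those that a cell transcribes within minutes of a growth factor, stress or cytokine signal, without new protein. They encode transcription factors of the AP-1 and EGR families, and the phosphatases and Sprouty proteins that limit the MAP kinase cascade follow them.

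The platform was the Affymetrix Human Gene 2.0 ST array, each value being the log2 expression of 1 transcript cluster, called a feature below. Levels of different features were not set against each other, except as percentiles of marker genes and against medians over the whole array. The array medians of the 6 arrays lay between 5.41 and 5.43, and correlations between arrays ran from 0.990 to 0.992 among the controls and from 0.989 to 0.991 among the anti-AL078604.2 arrays over all 53617 features. A symbol was known for 16098 features, and AL078604.2 was not among them, so the level of the targeted RNA was not analysed here. The line's label was checked on marker genes in the control arrays, each gene's own feature being compared between lines after quantile normalization of all arrays, as a description. Some genes differed in the way the labels imply. RB1, known to be lost in MDA-MB-468, was 1.94 log2 higher in the arrays labelled MDA-MB-231 than in those labelled MDA-MB-468, the mesenchymal genes AXL, SNAI2 and FOSL1 were 1.90, 1.34 and 1.27 higher, and the basal keratin gene KRT5 differed by -1.32. Others did not, as 6 of the 11 mesenchymal genes with a feature were higher (median 0.21, VIM at -0.62), KRT14 was 1.27 higher, and CDKN2A, known to be deleted in MDA-MB-231, differed by -0.33. SMAD4, which is listed with RB1 as lost in MDA-MB-468, was 0.25 higher, and EGFR differed by -0.31. The 7 genes with a feature on the list of the SKBR3 amplicon and markers were higher than in SKBR3 by a median of 0.24, with ORMDL3 lower (-0.55). The 10 epithelial genes with a feature, known to be low or lost in MDA-MB-231, differed by a median of -0.11 against MDA-MB-468 and -0.14 against SKBR3, and EPCAM was at the 99.2, 99.3 and 98.9 percentile of all features in the 3 lines. Since these markers went partly with and partly against the label, values below are given for arrays labelled MDA-MB-231. Of 12 marker genes of leukocytes, fibroblasts and endothelium 6 had a feature, and 1 of them passed the filter on low values.

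Features were kept for testing if, in 1 or more of the 6 groups of the series, their mean exceeded the group's median over the whole array, which left 29855. The test was limma's moderated test in a model of all 18 arrays, with the Benjamini-Hochberg adjustment over all tested features, and a feature passed at an adjusted p below 0.05. In the arrays labelled MDA-MB-231, 51 features passed, 0.171% of those tested, with 29 (0.0971%) higher and 22 (0.0737%) lower after the anti-AL078604.2 ASO. Of these, 26 had a gene symbol, which is 0.233% of the 11149 named genes tested, with 17 (0.152%) higher and 9 (0.0807%) lower. The other 25 had none here, and 2 of them held identical values on every array. At an unadjusted p below 0.05 stood 2792 features. Changes were small for most, since 47 features were at least 2-fold higher and 47 at least 2-fold lower, and 20 of the 51 that passed had changed that much. The median change over all tested features was 0.01 log2. When the 6 arrays alone entered the model, 3 features passed, all lower and none with a symbol. Leaving out any 1 of the 3 control arrays left 0 passing in limma, as did leaving out treated replicate 2 or treated replicate 3 (unadjusted p below 0.05 for 1973 to 2419 features). Without treated replicate 1 the count was 532, among them all 51. Every test result in the following paragraphs carries that limit.

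**Figure D1:**
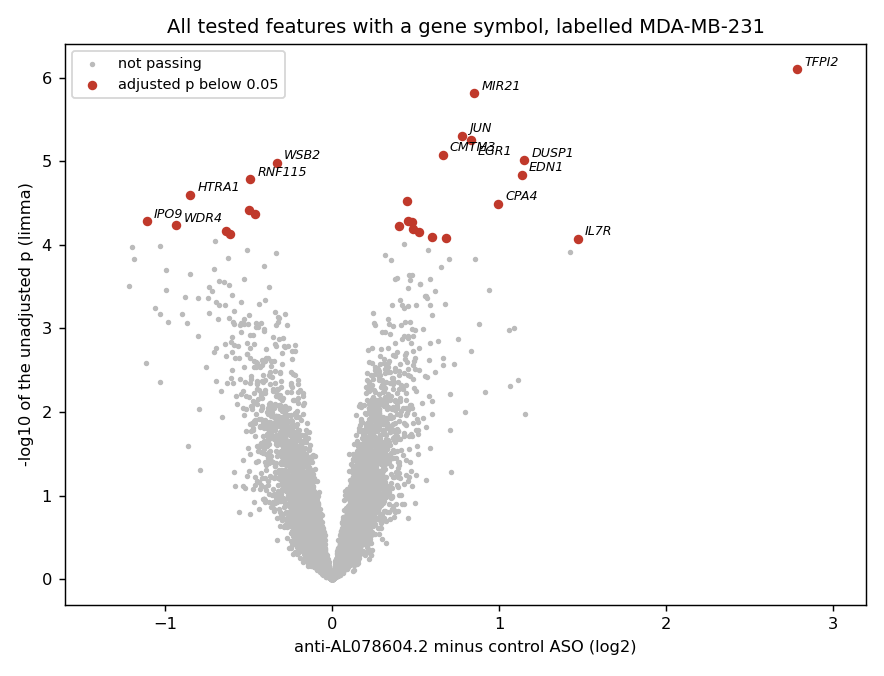
Each point is 1 of the 12003 tested features with a gene symbol (arrays labelled MDA-MB-231), placed by the change (anti-AL078604.2 minus control ASO, log2) on the horizontal axis and -log10 of limma's unadjusted p on the vertical axis. The 26 red points passed at an adjusted p below 0.05, and of all points TFPI2 (2.78) stood alone beyond 1.5 log2 in either direction.

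TFPI2, IL7R, DUSP1 and EDN1 rose most among the named genes that passed. TFPI2, a Kunitz-type inhibitor of serine proteases that is deposited in the extracellular matrix, read 7.08, 7.11 and 6.77 in the control arrays and 8.85, 10.04 and 10.42 in the anti-AL078604.2 arrays. All 3 treated arrays lay far above the controls, and replicate 1 lay below its fellows. The rise was 2.78 log2 (95% interval 2.02 to 3.55), or 6.89-fold, with a limma adjusted p of 0.0164. Of the other protease inhibitors tested, TIMP3 (-0.29), TIMP2 (-0.32) and SLPI (-0.22), which block metalloproteinases or neutrophil elastase, did not pass. Thus 1 of 8 tested members of this list passed higher and 0 passed lower. TIMP3 and TIMP2 lay below all controls (25% of the list, where 9.62% of named genes did), and 5 of the 8 were below 0. The median over the list was -0.08.

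CPA4, a secreted carboxypeptidase, read 8.91, 9.08 and 8.90 in the controls and 9.52, 10.09 and 10.26 in the treated arrays. The groups did not overlap, and the rise was 0.99 log2 (0.62 to 1.36, limma adjusted p = 0.0319). HTRA1, a secreted serine protease that cleaves matrix proteins, went the other way, from 7.29, 7.34 and 7.31 to 6.89, 6.42 and 6.09. Its controls lay close together while the treated arrays were spread out, replicate 1 being nearest to the controls, and the fall was -0.85 (-1.16 to -0.54, limma adjusted p = 0.0277). Over the 22 tested secreted and surface proteases, CPA4 was the 1 higher and HTRA1 the 1 lower gene that passed, and the sheddase ADAM17 (-0.27) and the carboxypeptidase CPD (-0.34) lay below all controls without passing. CRISPLD2, a secreted protein that binds lipopolysaccharide, rose from 7.71, 7.61 and 7.62 to 8.0, 8.30 and 8.44 (0.60, limma adjusted p = 0.0496).

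EDN1, the precursor of the vasoconstrictor and mitogen endothelin 1, read 9.96, 9.86 and 9.65 in the controls and 10.56, 11.01 and 11.30 in the treated arrays. The rise of 1.14 log2 (0.74 to 1.53, limma adjusted p = 0.0208) was not shared by the other 4 tested genes of the endothelin system, none of which passed. These were ECE1 (-0.18), which converts the precursor, the ligand gene EDN2 (-0.14), the ligand gene EDN3 (-0.01) and the receptor gene EDNRB (0.05). IL7R, the interleukin 7 receptor chain that also serves the cytokine TSLP, read 5.11, 4.94 and 4.51 against 5.46, 6.63 and 6.88. Its lowest treated array lay just above its highest control, and the rise of 1.47 (0.87 to 2.07) stood at the threshold, with a limma adjusted p of 0.0498. All 3 controls of IL7R lay below the array medians (5.41 to 5.43), that is, at low signal. Within this line only the treated group (mean 6.32, controls 4.85) exceeded the median that the filter used. Its entry into the test thus leaned on the group in which IL7R was high, and its pass carries that limit. Of 12 tested interleukin and cytokine receptor genes it was the 1 that passed.

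**Figure D2:**
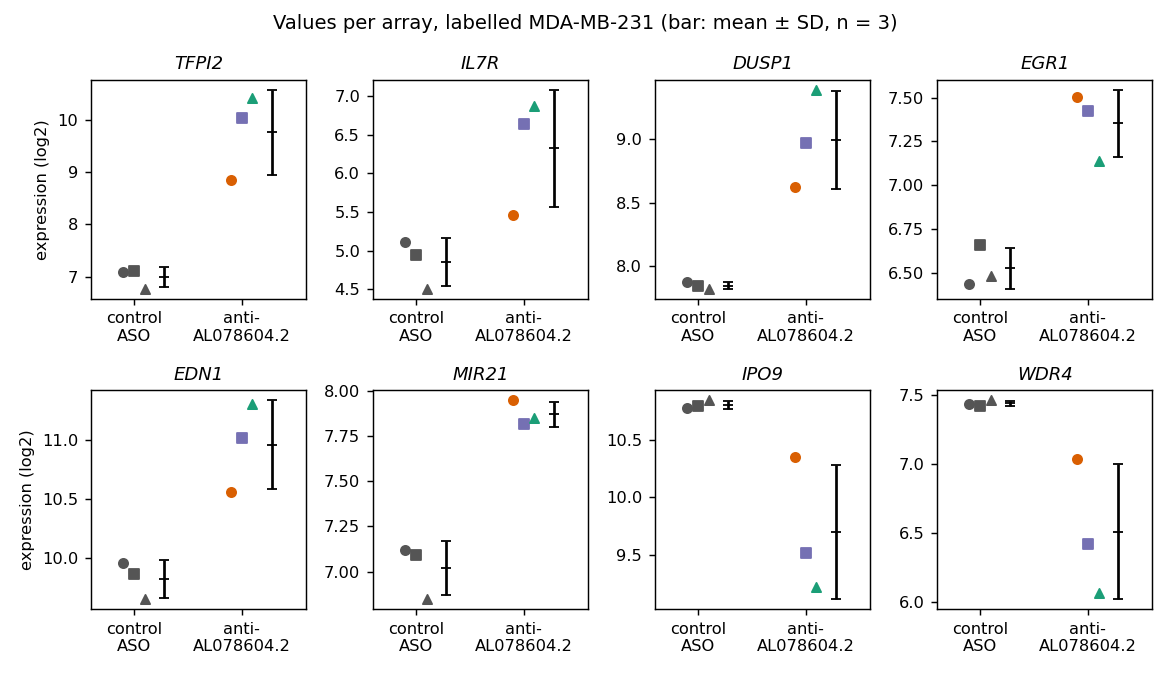
Expression (log2) of 8 of the genes that passed is shown for each of the 6 arrays labelled MDA-MB-231, with the marker shape giving the replicate number and the bar the mean ± SD (n = 3) of each group. In all 8 the groups did not overlap, and in TFPI2, IL7R, DUSP1, EDN1, IPO9 and WDR4 replicate 1 of the anti-AL078604.2 arrays lay nearest to the controls.

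EGR1, JUN, DUSP1 and ETV3, which encode 3 transcription factors and a phosphatase of the MAP kinase cascade, also rose. EGR1, a zinc finger factor, read 6.43, 6.66 and 6.48 in the controls and 7.5, 7.42 and 7.14 in the treated arrays, a rise of 0.83 log2 (0.56 to 1.10, limma adjusted p = 0.0168). A second feature of EGR1 overlapped between groups and did not pass (0.25, limma adjusted p = 0.6). JUN, the AP-1 subunit, went from 8.12, 8.24 and 8.11 to 8.83, 9.05 and 8.91 (0.78, 0.53 to 1.02, limma adjusted p = 0.0164). In EGR1 replicate 1 was the highest of the treated arrays, and in JUN the treated arrays lay close together. DUSP1, which dephosphorylates p38, JNK and ERK, had controls close to each other (7.87, 7.84 and 7.82) and treated arrays at 8.62, 8.97 and 9.39, a rise of 1.15 (0.76 to 1.54, limma adjusted p = 0.0208). ETV3, an ETS-family repressor, rose by less, from 8.07, 8.18 and 8.16 to 8.60, 8.52 and 8.50 (0.40, limma adjusted p = 0.0422).

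The list of AP-1, EGR and other immediate early factors was chosen with earlier results of these data known, and is therefore described without a test. Of its 29 genes 22 were tested, 2 passed higher (JUN and EGR1) and 0 lower, against 0.152% higher over the 11149 named genes tested. In 17 of the 22 (77.3%) every treated array lay above every control array, and in 0 below, where 10.9% of named genes lay above and 9.62% below. The median change was 0.34 log2, beside 0.01 over all named genes. Members above all controls without passing included ATF3 (0.57), MAFF (0.49), FOS (0.46), IER2 (0.45), KLF4 (0.42), MYC (0.41), FOSL1 (0.38), JUNB (0.35), FOSL2 (0.34) and SRF (0.17). EGR4 (-0.17) was the 1 member below 0, and EGR3 (0.12), IER5 (0.19), KLF10 (0.27) and CCN2 (0.15) overlapped between groups. Per treated array, the median of the list above the control mean was 0.20, 0.41 and 0.39, lowest in replicate 1. In the MAPK list, which holds phosphatases, Sprouty genes and some ETS factors but not ETV3, 16 genes were tested. Of these, 1 (DUSP1) passed higher and 0 lower. The median was 0.24, and 7 of 16 (43.8%) lay above all controls and 0 below. Besides DUSP1 these were the phosphatases DUSP5 (0.46), DUSP14 (0.53) and DUSP16 (0.09), the receptor kinase antagonists SPRY4 (0.56) and SPRY2 (0.44) and the factor ETV4 (0.51). The ERK phosphatase DUSP6 (0.25) and the factors ETV5 (0.09) and ETV1 (0.08) overlapped between groups. Of 9 tested ligands and receptors of the EGFR family 0 passed, the median was -0.05, and the ligand gene HBEGF (0.43) was the 1 above all controls.

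Promoter sequences of 4 of the genes that rose are printed because each held a match to a site class tied to these factors. They are the 250 bases before the gene's start in the sense of the gene, from RefSeq on GRCh38.p14, with the matches in capitals.
EGR1 (chr5:138465229-138465478, plus strand): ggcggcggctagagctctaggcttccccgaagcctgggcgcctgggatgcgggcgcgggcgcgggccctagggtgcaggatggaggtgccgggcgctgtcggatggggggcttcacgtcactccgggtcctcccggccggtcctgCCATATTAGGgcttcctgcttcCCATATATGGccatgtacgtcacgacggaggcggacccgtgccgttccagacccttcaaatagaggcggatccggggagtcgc
DUSP1 (chr5:172771196-172771445, minus strand): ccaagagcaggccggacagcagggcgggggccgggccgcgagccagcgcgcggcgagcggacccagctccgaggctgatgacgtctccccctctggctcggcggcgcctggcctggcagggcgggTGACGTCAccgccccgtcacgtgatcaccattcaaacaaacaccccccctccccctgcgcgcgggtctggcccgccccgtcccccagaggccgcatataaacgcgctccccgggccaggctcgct
TFPI2 (chr7:93890754-93891003, minus strand): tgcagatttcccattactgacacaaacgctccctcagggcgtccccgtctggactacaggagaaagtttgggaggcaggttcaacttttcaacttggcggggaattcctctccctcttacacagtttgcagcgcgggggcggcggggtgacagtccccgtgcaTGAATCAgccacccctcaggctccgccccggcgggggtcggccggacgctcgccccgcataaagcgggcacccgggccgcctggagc
CPA4 (chr7:130292911-130293160, plus strand): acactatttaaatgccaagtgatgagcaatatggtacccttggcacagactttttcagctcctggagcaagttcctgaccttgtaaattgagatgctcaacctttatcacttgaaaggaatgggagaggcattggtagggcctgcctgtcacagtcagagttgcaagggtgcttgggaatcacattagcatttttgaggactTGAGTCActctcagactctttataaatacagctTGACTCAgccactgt
Both strands were searched for the AP-1 motif TGANTCA, the cyclic AMP response element TGACGTCA, the EGR motif GCGTGGGCG and the CArG box bound by SRF, none of which overlapped another in these windows. EGR1 held 2 CArG boxes, beginning 105 and 83 bases before the start. DUSP1 held 1 cyclic AMP response element at 125 bases, TFPI2 held 1 AP-1 match at 87 bases, and CPA4 held 2 at 48 and 15 bases. RND3 held a CArG box at 72 bases. Of the 17 named genes that rose, 13 had a promoter in the RefSeq table, of which 2 (15.4%) held an AP-1 match, 2 (15.4%) a CArG box, 1 (7.69%) the response element and 0 the EGR motif. Over all 27305 promoters of that length the shares were 6.6%, 1.14%, 1.77% and 0.71% in the same order. The promoters of the 9 genes that fell held none of the 4 motifs. In the immediate early and MAPK lists together, 28 promoters were found, of which 0 held the AP-1 motif, 4 (14.3%) the response element and 2 (7.14%) a CArG box. A match is a string of letters and not a measured site, and with so few promoters the shares are descriptions.

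The microRNA gene MIR21 had the second smallest p of the named genes. It is the source of miR-21, an abundant microRNA of epithelial tumours. Its feature read 7.12, 7.09 and 6.85 in the controls and 7.95, 7.81 and 7.85 in the treated arrays, a rise of 0.85 log2 (0.60 to 1.10, limma adjusted p = 0.0164). The 3 treated arrays lay closer to each other than the controls did, and replicate 1 was the highest. The mature RNA and the 1 other human microRNA of RefSeq (GRCh38.p14) that shares its seed are printed below with bases 2 to 8, the seed that pairs with targets, in capitals.
hsa-miR-21-5p (chr17:59841273-59841294, plus strand): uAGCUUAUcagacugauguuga
hsa-miR-590-5p (chr7:74191213-74191234, plus strand): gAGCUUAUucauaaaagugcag
The MIR590 feature read 6.37, 6.39 and 6.29 against 6.42, 6.38 and 6.57, overlapped between groups and did not pass (0.11, limma adjusted p = 0.845). The array labels total RNA, and these features do not tell the mature RNA from its precursors. Over the 402 tested microRNA genes, MIR21 was the 1 that passed. Of them 6.47% lay above all controls and 3.48% below, where the shares over named genes were 10.9% and 9.62%. FOXD2-AS1, an antisense transcript beside the FOXD2 gene and the 1 passing among 722 long non-coding RNA genes tested, went from 6.81, 6.91 and 6.70 to 7.14, 7.52 and 7.81 (0.68, limma adjusted p = 0.0498).

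The other genes that rose have more diverse roles. CMTM3, a 4-pass MARVEL-domain membrane protein, read 6.03, 5.81 and 6.01 against 6.64, 6.52 and 6.68 (0.66, 0.44 to 0.88, limma adjusted p = 0.0208). It was the 1 of 14 tested CMTM and MARVEL genes that passed, and its paralogs CMTM6 (-0.19) and CMTM8 (-0.25) lay below all controls. SMAD6, an inhibitor of BMP signalling, went from 7.0, 6.92 and 7.15 to 7.45, 7.52 and 7.45 (0.45, limma adjusted p = 0.0315). Among 18 tested TGF-beta ligands, receptors, SMADs and inhibitors it alone passed, TGIF1 (0.32), a SMAD corepressor, lay above all controls and LTBP1 (-0.51), which anchors latent TGF-beta in the matrix, lay below. RND3, an antagonist of RhoA (0.45, limma adjusted p = 0.04), and KRT23, an acidic keratin (0.52, limma adjusted p = 0.0458), also rose. So did the homeobox genes HOXC11 (0.48, limma adjusted p = 0.04) and HOXC13 (0.48, limma adjusted p = 0.0443).

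The 9 named genes that fell were HTRA1, IPO9, WDR4, EPS15L1, MAML3, ROR1, RNF115, WSB2 and LIX1L. IPO9, an import receptor for histones and actin, fell most, with controls at 10.78, 10.79 and 10.84 and treated arrays at 10.35, 9.52 and 9.22. The controls were tight and the treated arrays spread, all of them below the controls and replicate 1 nearest to them. The fall was -1.11 log2 (-1.54 to -0.68, limma adjusted p = 0.04). Among 41 tested import and export receptors and nucleoporins it was the 1 that passed, and NUP155 (-0.34), a scaffold nucleoporin, and IPO11 (-0.47) lay below all controls, while the median of the list was 0.00. WDR4, the partner of METTL1 in the enzyme that makes 7-methylguanosine in tRNA, fell from 7.44, 7.42 and 7.46 to 7.03, 6.42 and 6.07 (-0.93, -1.30 to -0.56, limma adjusted p = 0.0422). The Elongator subunit gene ELP4 had a change as large (-0.99) that did not pass (limma adjusted p = 0.086). The 34 tested tRNA modification genes had a median of 0.06, so both stood apart from the centre of their list.

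EPS15L1, an adaptor of clathrin-coated pits, fell from 9.66, 9.67 and 9.54 to 9.33, 8.93 and 8.70 (-0.63, limma adjusted p = 0.0456). None of the other 25 tested genes of clathrin endocytosis passed, and their changes and its own gave a median of -0.03. MAML3, a coactivator of Notch, fell from 6.77, 6.79 and 6.72 to 6.44, 6.17 and 6.17 (-0.50, limma adjusted p = 0.0364). Its paralog MAML2 (-0.43) lay below all controls without passing, and the 24 tested Notch pathway genes had a median of -0.02. ROR1, a WNT5A receptor with a kinase-like domain, fell from 8.10, 8.39 and 8.23 to 7.94, 7.55 and 7.41 (-0.61, limma adjusted p = 0.0475). Of 21 tested WNT ligands and receptors the receptor genes FZD3 (-0.53) and LRP6 (-0.31) lay below all controls and the antagonist gene DKK1 (0.88) above, none of them passing.

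The ubiquitin ligase gene RNF115 fell from 10.17, 10.12 and 10.10 to 9.85, 9.59 and 9.49 (-0.49, limma adjusted p = 0.0208). WSB2, a SOCS-box protein that recruits substrates to a ligase, fell from 11.19, 11.14 and 11.13 to 10.95, 10.79 and 10.73 (-0.33, -0.44 to -0.22, limma adjusted p = 0.0208). Its paralog WSB1 lay above all controls without passing (0.29). LIX1L, an RNA-binding protein gene, fell from 8.21, 8.15 and 8.24 to 7.87, 7.72 and 7.63 (-0.46, limma adjusted p = 0.0376). The 9 genes that fell, all protein-coding, had a median span in the genome of 55.1 kb, the 15 protein-coding genes that rose 14.9 kb, and the 9727 tested protein-coding genes 26.6 kb, MAML3 (437432 bases) and ROR1 (407482 bases) being the longest of those that passed. This was not tested, since the genes were selected on the same arrays.

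The treated arrays were not alike in the size of these changes. In 20 of the 26 named genes that passed, replicate 1 was the treated array nearest to the control mean, in 3 it was replicate 2 and in 3 replicate 3. Over the 17 genes that rose the median distance from the control mean was 0.56, 0.71 and 0.76 in replicates 1, 2 and 3, and over the 9 that fell -0.32, -0.69 and -0.83. Over all 5121 features whose groups did not overlap (17.2% of those tested), whether passing or not, replicate 1 was nearest in 52.9%, replicate 2 in 22.6% and replicate 3 in 24.5%. The correlation of replicate 1 with the controls over all features (0.991 with each, to 3 digits) was as high as that among the controls, and that of replicate 3 ran from 0.987 to 0.989. The 6 genes in which another treated array was nearest were MIR21, CMTM3 and HOXC11 (replicate 2) and EGR1, SMAD6 and ETV3 (replicate 3).

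**Figure D3:**
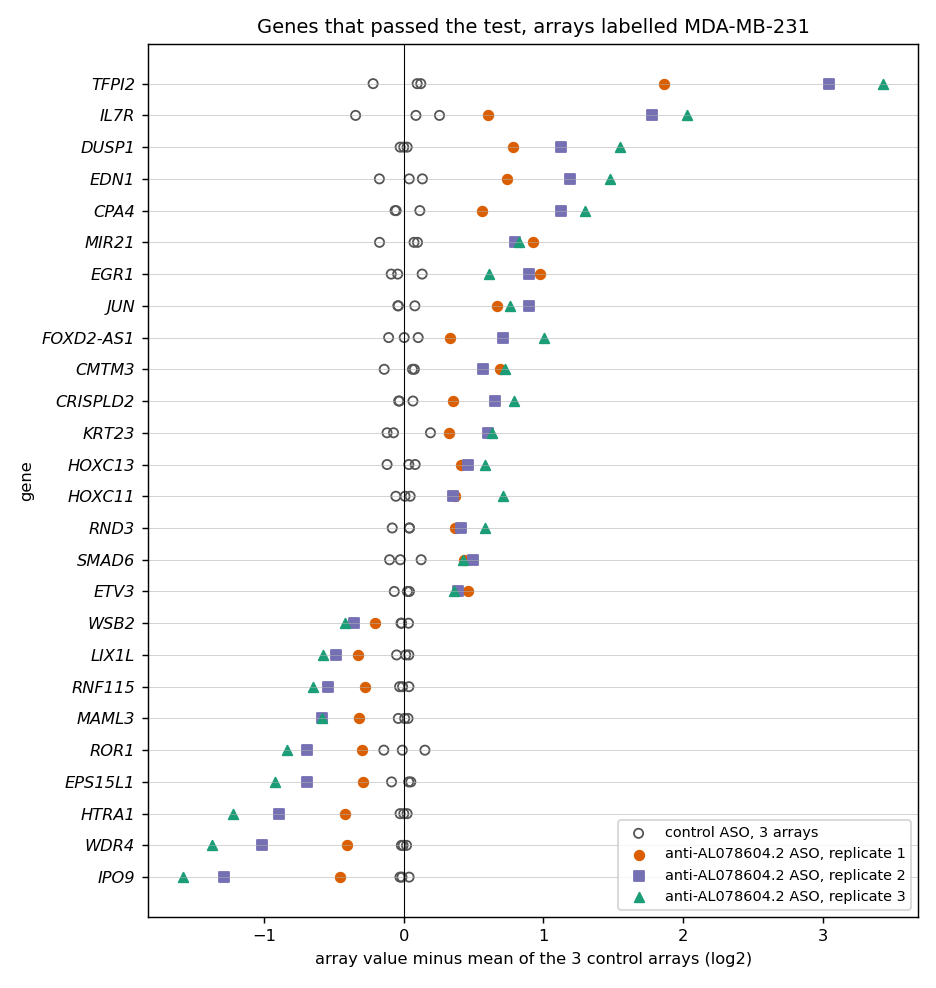
For each of the 26 named genes that passed, the value of each array minus the mean of the 3 control arrays (log2) is shown, with open circles for the control arrays and filled markers for anti-AL078604.2 replicates 1 (circle), 2 (square) and 3 (triangle). Replicate 1 was the treated array nearest to the controls in 20 genes, among them all 9 that fell.

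In the lists that follow 0 members passed, in either direction (limma), and their members are given as values. Interferon-stimulated genes had a median of 0.19 over 24 tested, and 8 (33.3%) lay above all controls and 0 below, where the shares over named genes were 10.9% and 9.62%. These were the factors IRF1 (0.70) and IRF7 (0.38) and the effector genes IFIT2 (0.94), IFIT3 (0.66), IFIT5 (0.28), IFI35 (0.27), IFITM1 (0.26) and OASL (0.33). Of the 24 tested, 23 were above 0 and 1 below. Changes were small for ISG15 (0.02), USP18 (0.01), IFITM3 (-0.05) and MX2 (0.05). Of 16 nucleic acid sensors and adaptors, 4 (25%) lay above all controls, led by the TLR3 adaptor gene TICAM1 (0.40), with a median of 0.12. IRF1 had a change that missed the threshold by little (limma adjusted p = 0.0612).

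NF-kB and chemokine genes had a median of 0.17 over 13 tested. Of these, 5 (38.5%) lay above all controls and 0 below, where 10.9% of named genes lay above and 9.62% below. The monocyte chemoattractant gene CCL2, whose control arrays lay below the array medians, read 5.04, 4.07 and 4.70 against 5.57, 6.49 and 6.04. Within this line only its treated group (mean 6.03, controls 4.61) exceeded the median that the filter used. CCL2 had the largest change of any named gene whose groups did not overlap and that did not pass (1.42, limma adjusted p = 0.0572). PTGES, the prostaglandin E synthase (0.58), the adhesion gene ICAM1 (0.43), NFKB2 (0.32) and RELB (0.30) were the others, while the chemokine gene CCL20 (0.91), TNF (0.17), CXCL2 (-0.06), CCL5 (0.01) and CSF3 (0.00) overlapped between groups. Of 24 tested lysosome and autophagy genes 10 (41.7%) lay above all controls and 1 below. MAP1LC3B (0.49) and GABARAPL1 (0.44), which coat autophagosomes, the cargo receptor gene SQSTM1 (0.25) and the master regulator gene TFEB (0.29) lay above all controls, whereas LAMP1 (-0.06), LAMP2 (-0.07), CTSB (-0.12), CTSD (-0.09) and PSAP (-0.06) overlapped between groups.

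Over 26 tested DNA replication and G1/S genes the median was 0.11. Of these, 8 (30.8%) lay above all controls and 0 below. For this and the next lists, 10.9% of named genes lay above and 9.62% below. The kinase gene CDC7 was at 0.21 and the replicative helicase genes MCM7 at 0.25, MCM4 at 0.15, MCM6 at 0.14 and MCM3 at 0.13. Over 36 G2/M and mitosis genes the median was -0.0049, with 5 (13.9%) above, near the share over named genes, and 1 (2.78%) below. Of 28 cholesterol and fatty acid synthesis genes 25 were below 0, with a median of -0.10 and 7 (25%) below all controls, MVD (-0.59), ACACA (-0.27) and SQLE (-0.17) having the smallest p. Over 43 cytosolic ribosomal protein genes the median was -0.03 with a range from -0.12 to 0.18, and 14 members were above 0. Of 19 apoptosis regulators 6 (31.6%) lay above all controls and 0 below, led by the BH3-only gene PMAIP1 (0.66). Of 14 p53 targets 5 (35.7%) lay above, among them GDF15 (0.60), and 2 (14.3%) below, SESN1 (-0.53) and CCNG1 (-0.17). MDA-MB-231 is known to carry mutant p53. Heat shock genes (median 0.02 over 14), genes of the unfolded protein response (0.03 over 15) and genes of glycolysis and hypoxia (-0.01 over 16) had medians near that of all genes. Above all controls lay 4 (28.6%), 1 (6.67%) and 1 (6.25%) of them in the same order, and below 2 (14.3%), 4 (26.7%) and 2 (12.5%). Of 18 genes of RNase H and paraspeckles, which handle oligonucleotides, 5 (27.8%) lay above all controls and 1 below, with a median of 0.03 and RNASEH1 at 0.18. Of 18 YAP and TEAD targets 6 (33.3%) lay above and 1 below, with a median of 0.08 and the LIM protein gene AJUBA at 0.44. Epithelial markers had a median of -0.07 over 10, with 0 above and 1 (10%) below all controls. Mesenchymal markers had a median of 0.04 over 10, with 2 (20%) above and 2 (20%) below, including ANXA1 (0.73) above and CD44 (-0.32) below.

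**Figure D4:**
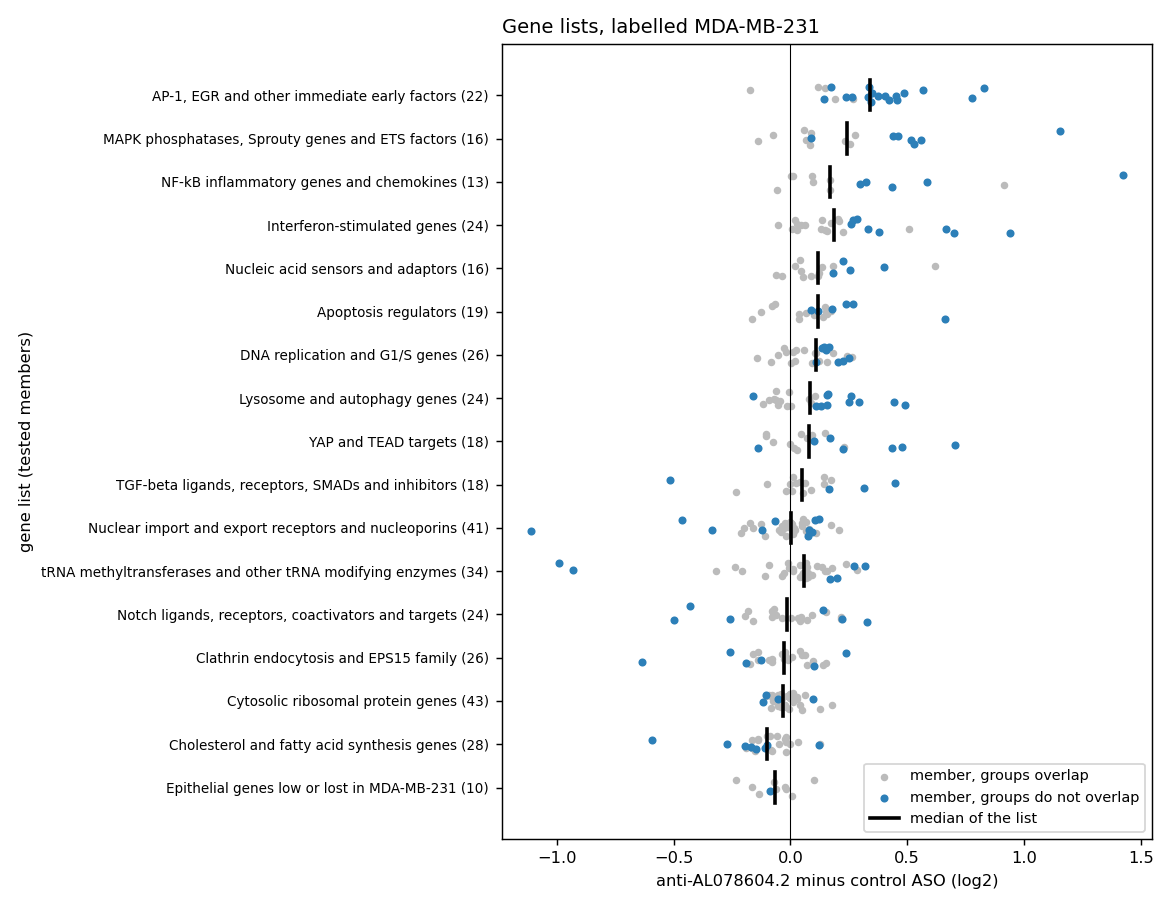
Each point is a tested member of the gene list at the left, placed by its change in the arrays labelled MDA-MB-231 (anti-AL078604.2 minus control ASO, log2), coloured blue where the 3 arrays of each group did not overlap, and the black bar is the median of the list. Among the 17 lists drawn the median was highest for the AP-1 and EGR list (0.34) and lowest for cholesterol and fatty acid synthesis (-0.10), and single genes lay far to the left of lists centred near 0, such as IPO9 (-1.11).

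Among named genes that did not pass, the largest changes without overlap were those of CCL2 (above), the oxidized LDL receptor gene OLR1 (1.09), MIR544B (1.07), the adhesion gene L1CAM (1.06) and IFIT2 (0.94) on the higher side. On the lower side they were MIX23 (-1.21), the zinc finger gene ZKSCAN1 (-1.20), WDR7, which acts in acidification of vesicles (-1.19), the cohesin subunit gene STAG1 (-1.11) and NBEAL1 (-1.06). ZKSCAN1 read 10.18, 10.12 and 10.34 against 9.75, 8.80 and 8.50 (limma adjusted p = 0.055). WDR7 had control arrays at 8.42, 8.43 and 8.43 and treated arrays at 7.84, 6.91 and 6.98 (limma adjusted p = 0.0612). In each of the 5 lower genes replicate 1 was again the treated array nearest to the controls. Of the 25 features without a symbol here, 12 rose and 13 fell. The largest rise among them was 2.65 log2 (6.63, 6.61 and 6.34 against 8.27, 9.40 and 9.86, features 17122136 and 17122138, which held identical values), and the largest falls were -1.74 (feature 16651193) and -1.68 (feature 16889724).

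The same ASO was given to cells labelled MDA-MB-468, which have their own 3 control arrays, so that neither change shares an array with the other. There 2 features passed (0.0067% of those tested). All 26 named genes that passed in the arrays labelled MDA-MB-231 had the same sign in those labelled MDA-MB-468, and 1 of them, CMTM3, passed there (0.76 against 0.66). In 13 of the 17 that rose every treated array of MDA-MB-468 lay above its controls, and in 9 of the 9 that fell every one lay below, where 8.41% of all tested features lay above and 8.5% below. The spread used to select the genes was pooled over all groups, which favours genes of small spread in MDA-MB-468 too. The shares over all features are therefore not an equal background. The change was smaller in MDA-MB-468 for 25 of the 26, with medians of 0.68 and 0.35 over the genes that rose and -0.61 and -0.45 over those that fell. These genes were selected on their change in the arrays labelled MDA-MB-231, which favours a larger change there. The count therefore does not show a weaker response in MDA-MB-468. The difference between the 2 changes was tested in the same model and no feature passed (limma, smallest adjusted p = 0.998, unadjusted p below 0.05 for 1243 features, 4.16%).

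The sizes differed from gene to gene. IL7R changed by 1.47 in one and 0.19 in the other, a difference of 1.29 ± 0.401 (SE, limma adjusted p = 0.998). Its group means in MDA-MB-468 (4.15 in controls, 4.33 treated) lay below the array medians of that line (5.21 to 5.24). TFPI2 changed by 2.78 and 1.44, a difference of 1.35 ± 0.512 (SE, limma adjusted p = 0.998). Of the genes that fell, IPO9 stood at -1.11 and -0.94, WDR4 at -0.93 and -0.80, HTRA1 at -0.85 and -0.60, EPS15L1 at -0.63 and -0.49, ROR1 at -0.61 and -0.18, MAML3 at -0.50 and -0.38, RNF115 at -0.49 and -0.45, LIX1L at -0.46 and -0.33 and WSB2 at -0.33 and -0.32. The 5 named genes with the smallest p for a more positive change in MDA-MB-231 were CCL2 (1.42 against -0.30), the peroxisomal ATPase gene PEX6 (0.27 against -0.17), the nucleosome-binding gene HMGN2 (0.28 against -0.25), PTGES (0.58 against -0.10) and the meiotic gene MSH5 (0.21 against -0.22). In the opposite direction they were the actin regulator gene CALD1 (-0.20 against 0.16), KANK4 (-0.37 against 0.20), FAM241A (-0.16 against 0.33), ZNF14 (-0.28 against 0.28) and OXGR1 (-0.16 against 0.43). None of these 10 differences passed (limma adjusted p = 0.998 for each). The group means of CCL2 in MDA-MB-468 (3.49 in controls, 3.19 treated) also lay below the array medians of that line. The immediate early list, with a median of 0.34 in MDA-MB-231, had 0.11 in MDA-MB-468, where 2 of 22 lay above all controls and 1 below. Over all tested features in MDA-MB-468, 8.41% lay above and 8.5% below. The MAPK list differed less, with medians of 0.24 and 0.20, and 4 of 16 lay above all controls in MDA-MB-468 and 0 below. The DNA replication list had 0.11 and -0.06.

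**Figure D5:**
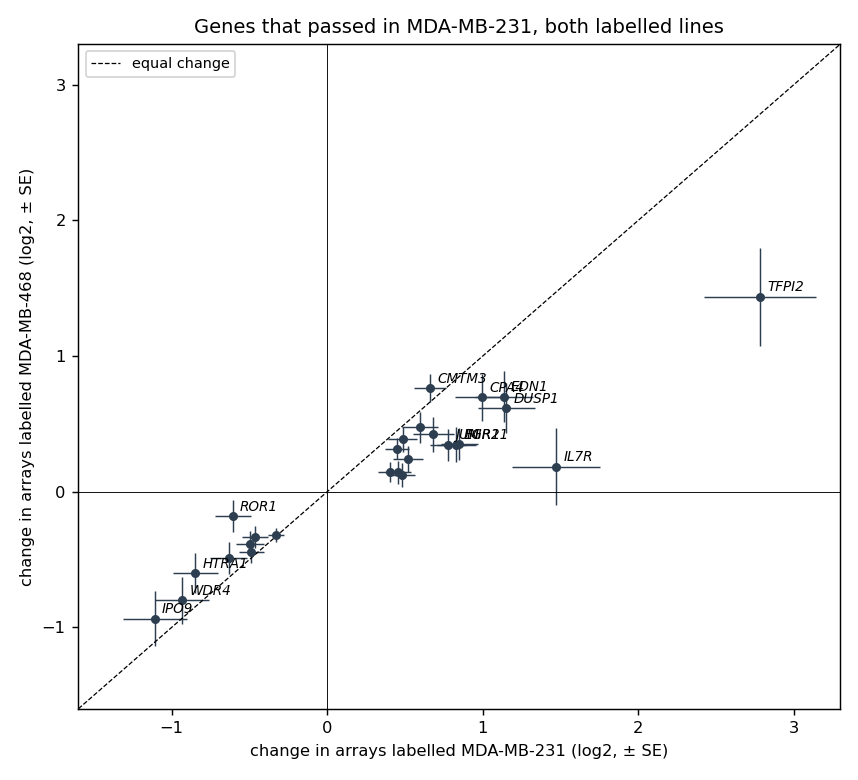
For the 26 named genes that passed in the arrays labelled MDA-MB-231, the change there (horizontal axis, log2, ± SE) is set against the change in the arrays labelled MDA-MB-468 (vertical axis, log2, ± SE), with n = 3 per group and a dashed line of equal change. All 26 lie in the quadrants of equal sign, and 25 lie on the side of the smaller change in MDA-MB-468, CMTM3 being the exception. The genes were selected on the change drawn horizontally, which favours larger values on that axis.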

How the data were processed

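The submitters' processing notes name Transcriptome Analysis Console as the software. How it summarized and normalized the scans, and on which build, is not given in the sources used here. Values deposited by the authors were read as log2 expression from their range (1.46 to 13.84 in the 6 arrays), since no header names a scale. Array medians were alike within a line and differed between lines, so levels were compared within lines, except in the check of marker genes. Symbols came from the platform's annotation, updated by gene ID to RefSeq (GRCh38.p14), with 1 symbol for 16098 of 53617 features, several for 0 and none for 37519.

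Tests used R 4.3.3 and limma 3.58.1, with a group-means model of 18 arrays, 12 residual degrees of freedom and an intensity trend (4.33 prior degrees of freedom). They were two-sided. The procedure was also run on simulated data with independent noise, of the same spread for a feature in all groups. That setting lacks the unequal treated arrays described above, so it does not bear on how far the calls depend on single arrays. A list used 1 feature per gene, that of the highest mean. Members and lists were chosen with earlier results of these data known. Named genes were all that passed, up to 4 per list with the smallest p, the 5 largest changes per direction that did not pass, 5 per direction for the difference between lines, the 2 largest rises and falls without a symbol, neighbours of genes that passed and the 5 genes most like TFPI2. Others were named after their values were seen. Alternatives were the replicate block, filters, scaling, the arrays and options of the model, the threshold and leaving out each array. Control probes were not marked and were kept.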

Additional observations from a re-analysis of the deposited data

How the results depend on the processing

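All 26 named genes kept their direction under every alternative run. For most alternatives this was fixed beforehand, since genes without overlap between groups keep their direction when an array is left out. Other options of the model left the change itself as it was. None of the 26 passed with the replicate number as a block or with the 6 arrays alone. With 51 features passing as reported, the count was 59 when only features above the median in this line were tested, 48 after quantile normalization within lines, 42 with arrays centred on their medians and 48 with a robust prior. It was 28 without a filter, 26 without the intensity trend, 3 with the 6 arrays alone, 160 at an adjusted p below 0.10 and 2413 with array weights, which gave anti-AL078604.2 replicate 2 a weight of 3.43 and replicates 1 and 3 weights of 0.576 and 0.574. With the replicate number as a block 0 passed (limma, unadjusted p below 0.05 for 2528). Correlations of deviations between arrays of the same number were small (-0.0394, -0.0202 and -0.0642). Such a correlation cannot show a pairing that affects part of the genes. The labels do not say whether arrays of the same number were prepared together. Leaving out 1 array gave from 0 to 532. The cause of these shifts was not tested. The difference between lines had 0 passing under every alternative but array weights, which gave 309. The number of arrays limits the precision.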

Other observations

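Other homeobox genes of the HOXC cluster were looked at after HOXC11 and HOXC13 had been seen. Beside HOXC11 (0.48) and HOXC13 (0.48), which passed, HOXC12 between them changed by 0.45 ± 0.10 (SE, n = 3 per group, limma adjusted p = 0.0839), and HOXC10 (0.18) and HOXC4 (0.22) also lay above all controls without passing, while HOXC9 (0.33) and HOXC8 (-0.15) overlapped between groups. HOXC genes specify position along the body axis. Of other genes next to those that passed, some had changes of the same sign, as VSIG10 (-0.26) beside WSB2 (-0.33), PGM1 (-0.32) beside ROR1 (-0.61), PDE9A (-0.28) beside WDR4 (-0.93), ETV3L (0.28) beside ETV3 (0.40) and HIVEP1 (0.18) beside EDN1 (1.14), and others did not, as FGGY (-0.37) beside JUN (0.78) and SMAD3 (-0.23) beside SMAD6 (0.45). The protein-coding genes on either side of IPO9 were NAV1 (-0.03) and SHISA4 (0.18), and those beside LIX1L were RBM8A (0.02) and ANKRD34A (0.13). KLF2 (0.24) lies next to EPS15L1 (-0.63). None of these neighbours passed.

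The named genes whose values followed TFPI2 most closely over the 6 arrays were the adhesion gene MCAM (0.41), MIR4653 (0.33), CCDC71L (0.59), the lipid transfer gene OSBPL2 (0.17) and the kinase gene PLK3 (0.30), with Pearson correlations from 0.9945 to 0.9997. The 6 arrays share their 2 groups, so such a correlation follows from any change between them, and none of the 5 genes passed.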
